A study of Mus musculus with 10 samples.

Results

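Interferon-stimulated genes were followed in mouse embryonic stem cells (ESCs) that lack DGCR8 or DDX6. The genes are a list of 48 symbols, all of which were matched among the 51467 genes of the count table. The list was compiled with earlier results of these data in view, so its members count as chosen by their values in the contrasts of the knockouts with wild type and with each other. For the members, calls in those contrasts are therefore a description and not an independent test, and their p-values are not given.

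A total of 21 members were high enough to be tested. The limit was 3 CPM (counts scaled to the library total) in 3 or more libraries. Among these, 15 were called higher in DGCR8 KO than in wild-type cells and 0 lower, where 8.93% of all 11683 genes tested were called higher and 5.8% lower. In DDX6 KO cells, 3 of the 21 were called higher and 0 lower, beside 7.55% and 3.66% of all genes. Calls needed both an adjusted p-value below 0.05 and a change of more than 1 log2 unit. The members called in DGCR8 KO cells included the transcription factors Irf1 and Irf9, the antiviral enzyme Rsad2, the membrane protein Ifitm1 and all 4 listed genes of the Parp and Dtx3l group. Other classical members stayed at or near 0 counts in every genotype, among them Mx1, Mx2, Ifit1, Ifit3, Usp18 and Isg15.

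Interferons are secreted proteins that warn cells of infection. They bind receptors on the cell surface, and the Janus kinases JAK1, JAK2 and TYK2 pass the signal on to transcription factors. A complex that holds STAT2 and IRF9 binds the interferon-stimulated response element (ISRE) in the promoters of its target genes, and the response to interferon gamma also uses the gamma-activated site (GAS). The targets encode proteins that block virus entry, replication or release, and several of them, such as IRF1 and IRF9, also act in the pathway itself. Pluripotent stem cells are known for a weak response to interferon and for making little of it.

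Messenger RNA was measured by QuantSeq, which counts 1 read near the 3′ end of each transcript, so that CPM values of different genes are not compared here. Wild-type cells (WT) were the V6.5 line and gave 3 libraries. DGCR8 KO cells lack the RNA-binding partner of Drosha needed to process most miRNAs and gave 3 libraries. DDX6 KO cells lack an RNA helicase that the miRNA effector complex recruits and gave 4 libraries, 2 from each of 2 clones. All cells were grown in medium with serum, LIF and both inhibitors of 2i (PD0325901 and CHIR99021), which keeps them in the naive state. Per the labels, KO cells were made by CRISPR. The methods describe this for Ddx6, in V6.5 cells, and list the Dgcr8 KO cells as a line the laboratory had made earlier, so that loss of DGCR8 and the history of that line cannot be told apart. No source states that libraries of a group came from separate cultures, so p-values measure the spread between these libraries, which may be technical.

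The libraries held between 2131156 and 4745083 counts over genes, at which 3 counts, taken as the floor, correspond to 0.665 to 1.43 CPM. Dgcr8 was at 9.11 to 15.4 CPM in DGCR8 KO and at 34.9 to 65.4 CPM in the other libraries. Ddx6 was at 25.6 to 149 CPM in DDX6 KO and at 484 to 583 CPM elsewhere. All 8 markers of naive ESCs were expressed, with summed levels of 4016 to 4286 CPM in WT, 3621 to 3996 CPM in DGCR8 KO, below all WT libraries, and 4017 to 4246 CPM in DDX6 KO. Of 8 markers of fibroblast feeder cells, 2 were tested, and the sum of the list was 5.77 to 9.07 CPM in WT, 4.86 to 5.74 CPM in DGCR8 KO and 7.70 to 10.9 CPM in DDX6 KO. The sum of 6 markers of blood and immune cells was 156 to 192 CPM in WT, 259 to 328 CPM in DGCR8 KO and 198 to 255 CPM in DDX6 KO. Most of that sum came from Laptm5, which was at 142 to 279.6 CPM in the 10 libraries. The defining immune genes Ptprc and Tyrobp had 0 counts in every library, while Cd68 and Cd3e were higher in all DGCR8 KO than in all WT libraries. Of 6 markers of primitive endoderm, a lineage that ESC cultures can give rise to, 1 was tested, and their sum was 7.54 to 11 CPM in WT, 3.24 to 4.73 CPM in DGCR8 KO and 16.4 to 24.0 CPM in DDX6 KO. The tested marker was Dab2, at a mean of 6.26 CPM in WT, 1.06 CPM in DGCR8 KO and 16.5 CPM in DDX6 KO. None of the others, Gata4 and Sox17 among them, exceeded a mean of 1.42 CPM in WT or 1.43 CPM in DDX6 KO. The part of these differences in the results for the members was not tested. In bulk samples, fewer cells of a type and less RNA per cell cannot be told apart.

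Chromosomes 6 and 8 were shifted as a whole. The median over the 561 tested genes of chromosome 6 was 0.53 to 0.65 log2 units above the WT mean in the DDX6 KO libraries. For the 644 tested genes of chromosome 8, it was 0.38 to 0.51 units below in the DGCR8 KO libraries. Of the tested members, Parp12 and Samd9l lie on chromosome 6 and Bst2 on chromosome 8. Without members of both chromosomes, 13 of 18 were called higher in DGCR8 KO against WT, 3 of 18 in DDX6 KO against WT and 10 of 18 in DGCR8 KO against DDX6 KO. Of all genes tested, with both chromosomes included, 8.93%, 7.55% and 7.77% were called higher in these contrasts.

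Detection was uneven within the list. Of the 48 members, 7 had 0 counts in every library (Ifi44, Usp18, Trim30a, Mx1, Mx2, Ifit3 and Ifit3b). Ifit1, the founding member of a family of RNA-binding antiviral proteins, had 1 count in all, and Isg15, a ubiquitin-like protein conjugated to other proteins during the response, had 3. A total of 20 members had counts but did not pass the filter, and 13 untested members never exceeded 3 counts in a library. Values of such genes rest on a few reads. With no filter, 41 members could be tested, as given with the alternatives.

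Some untested members had counts that lay mostly in a single genotype. Oasl2, a 2′-5′ oligoadenylate synthetase, had 9, 11 and 5 counts in DGCR8 KO, 0 in each WT library and 1, 0, 1 and 0 in DDX6 KO. Against the floor of the WT libraries this was a mean at least 1.97-fold higher. Gbp7, a guanylate-binding GTPase, had 10, 24 and 6 counts in DGCR8 KO and 1, 0 and 0 in WT, a ratio of 43.9 (95% exact binomial interval of 7.43 to 1775), and 1, 2, 6 and 1 in DDX6 KO. Rtp4 had 6, 6 and 2 counts in DGCR8 KO against 1, 0 and 0 in WT, a ratio of 15.3 (2.34 to 649), and 1, 1, 2 and 0 in DDX6 KO. Such intervals, here and below, cover counting error only. The genes were picked by these same counts, so the intervals are not tests. Trim21, a cytosolic antibody receptor, had 14, 11 and 7 counts in DGCR8 KO, 0, 6 and 3 in WT and at most 2 in DDX6 KO libraries.

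Other untested members had their higher counts in DDX6 KO. Oas3 had 8, 7, 6 and 3 counts there against 0, 1 and 0 in WT, a ratio of 19.0 (3.09 to 780.3), and 3, 2 and 2 in DGCR8 KO. Ifi27 had 4, 8, 8 and 13 counts in DDX6 KO against 2, 1 and 0 in WT, a ratio of 8.70 (2.73 to 44.3). Ifit2 had 2, 5, 6 and 2 counts in DDX6 KO and 0, 1 and 0 in DGCR8 KO. Ube2l6, the ubiquitin-conjugating enzyme for ISG15, showed the reverse order to the genes called in DGCR8 KO, with 2, 9 and 17 counts in WT, 4, 1 and 1 in DGCR8 KO and 0 to 4 in DDX6 KO. Sp100, a protein of nuclear bodies, had 1, 2 and 5 counts in WT and 0 in each DGCR8 KO library. Of the untested members that exceeded 3 counts in a library, Oas1g overlapped between all groups, with 4 to 13 counts. Helz2 had 7, 1, 6 and 5 counts in DDX6 KO, 5, 3 and 2 in DGCR8 KO and 0, 1 and 0 in WT. Lgals3bp had 1, 4, 8 and 4, against 4, 1 and 0 and 1, 0 and 0. Ddx60, a helicase, had 1, 9 and 2 counts in DGCR8 KO and at most 4 elsewhere. Oas1b, Herc6 and Gbp3 had at most 3 counts in a library, and those of Gbp3 were all in DGCR8 KO.

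**Figure D1:**
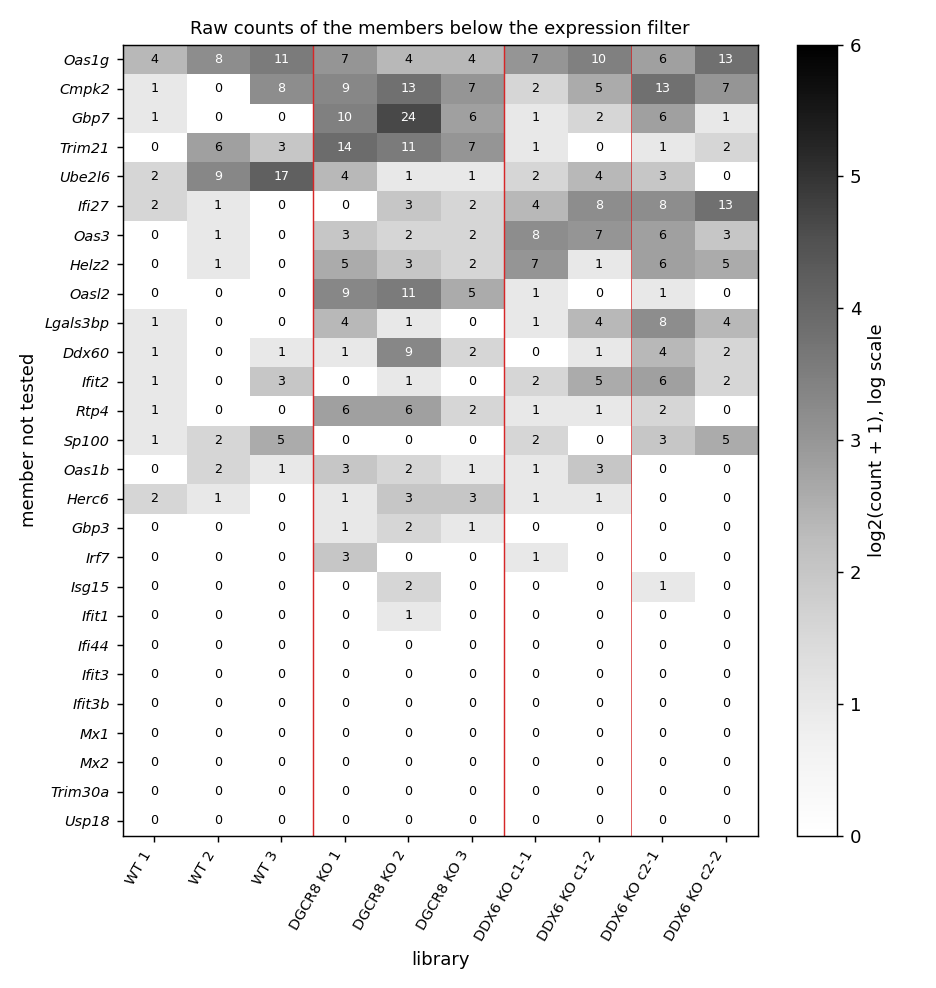
Raw counts of the 27 members that did not pass the filter (rows) in the 10 libraries (columns), with the number printed in each cell and a grey scale of log2(count + 1). Lines part WT, DGCR8 KO and the clones of DDX6 KO (c1 and c2). The lowest 7 rows are at 0 throughout, and no untested member exceeded 24 counts in a library.

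Among the transcription factors of the pathway, Irf1 and Irf9 were called higher in DGCR8 KO and Stat2 was not called. Irf1 (chr11:53770014-53778374, mm10, + strand), a factor induced by interferon that binds response elements of other members, was at 74.5, 66.8 and 57.9 CPM in WT, at 351, 203 and 164 CPM in DGCR8 KO and at 98.7, 62.3, 76.3 and 43.4 CPM in DDX6 KO. All DGCR8 KO libraries lay above all others, with a wide spread among them, while DDX6 KO and WT overlapped. The log2 fold change was 1.82 ± 0.26 (SE) in DGCR8 KO and 0.03 ± 0.26 in DDX6 KO against WT. Irf9 (chr14:55603571-55610030, + strand), which brings its complex with STAT2 to DNA, was at 15.8, 14.6 and 26.4 CPM in WT, at 75.8, 67.8 and 111 CPM in DGCR8 KO and at 21.5, 23.2, 17.8 and 22.8 CPM in DDX6 KO. It too was separated in DGCR8 KO alone, by 2.08 ± 0.23 log2 units, and differed by 0.14 ± 0.25 in DDX6 KO. Stat2, the partner of IRF9, was at 14.3, 16.9 and 13.3 CPM in WT, at 9.44, 16.2 and 15.8 CPM in DGCR8 KO and at 18.6, 14.5, 15.4 and 15.0 CPM in DDX6 KO, so that all groups overlapped. Irf7, the factor that amplifies type I interferon production, had 3 counts in DGCR8 KO replicate 1, 1 count in clone 1 and 0 in the other libraries.

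Rsad2 (viperin; chr12:26442746-26456452, − strand), a radical SAM enzyme that makes a chain-terminating nucleotide, was the only tested member of the group with the Ifit genes. It had 0 counts in all WT libraries and was at 7.61, 13.5 and 7.70 CPM in DGCR8 KO, a sum of 84 counts. Its mean there was at least 6.70-fold above the floor of the WT libraries. DDX6 KO cells held it at 0.364, 0.346, 0.700 and 0.835 CPM, all at or under the floor, with 7 counts in total. Cmpk2, its neighbour in the list, did not pass the filter, with 9, 13 and 7 counts in DGCR8 KO, 1, 0 and 8 in WT and 2, 5, 13 and 7 in DDX6 KO. Relative to depth, its DGCR8 KO libraries were all above WT.

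The Oas family gave a mixed picture. Oas1a (chr5:120896256-120907521, − strand), which makes the 2′-5′ oligoadenylates that activate RNase L, was at 6.21, 1.02 and 3.55 CPM in WT, at 10.7, 13.5 and 8.51 CPM in DGCR8 KO and at 7.65, 5.88, 5.60 and 3.90 CPM in DDX6 KO. Every DGCR8 KO library was above every WT library, by 1.90 ± 0.45 log2 units, and DDX6 KO overlapped with WT, with a difference of 0.94 ± 0.46. Oasl1 (chr5:114923240-114937915, + strand), a relative without synthetase activity, was called higher in both knockouts. It was at 0, 0 and 0.887 CPM in WT, at 5.79, 4.39 and 4.46 CPM in DGCR8 KO and at 5.83, 9.34, 8.75 and 8.07 CPM in DDX6 KO. Both knockouts were above WT in every library, by 3.88 ± 0.70 and 4.56 ± 0.67 log2 units, and each DDX6 KO library was above each DGCR8 KO library. Oas1c and Oas2 were between 0.955 and 5.01 CPM in all libraries, with overlapping groups and differences from WT between -0.01 and 0.79 log2 units. Copies of Oas1 are near-identical in places, and reads shared between them were not counted, so their split is uncertain.

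Among the membrane proteins, Ifitm1 was called higher in DGCR8 KO, and Ifitm2, Ifitm3 and Bst2 were not called. Ifitm1 (chr7:140967221-140969825, + strand), which holds viruses back at the cell membrane, was at 37.3, 43.0 and 43.7 CPM in WT, at 237, 243 and 236 CPM in DGCR8 KO and at 21.1, 22.1, 29.7 and 30.3 CPM in DDX6 KO. Both knockouts were apart from WT in every library, but in opposite directions. Its log2 fold change was 2.51 ± 0.13 in DGCR8 KO and -0.69 ± 0.16 in DDX6 KO, the latter within the limit for a call. Ifitm3 (chr7:141009586-141010770, − strand), which acts in endosomes, was at 182, 211 and 245 CPM in WT, at 328, 364 and 416 CPM in DGCR8 KO and at 149, 188, 172 and 230.0 CPM in DDX6 KO. Its DGCR8 KO libraries were all above WT, by 0.78 ± 0.14 log2 units, which is under the limit, while DDX6 KO overlapped with WT. Ifitm2, which lies next to Ifitm1, was at 21.5, 28.1 and 36.1 CPM in WT, at 31.1, 38.8 and 32.8 CPM in DGCR8 KO and at 18.2, 22.8, 28.3 and 25.3 CPM in DDX6 KO, with overlapping groups. The Ifitm genes share sequence, so reads that fit several of them were not counted.

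Bst2 (tetherin; chr8:71534255-71537456, − strand), which ties budding virions to the cell, was the only tested member below WT in all DGCR8 KO libraries. Its level was 14.8, 12.9 and 15.1 CPM in WT, 7.01, 8.44 and 8.51 CPM in DGCR8 KO and 11.7, 12.5, 14.7 and 16.7 CPM in DDX6 KO. The difference of -0.84 ± 0.25 log2 units in DGCR8 KO was not called, and the gene lies on chromosome 8, which was lower as a whole in these libraries. Gbp2 (chr3:142620602-142638008, + strand), a GTPase that attacks membranes around pathogens, had 0 counts in all WT libraries. It was at 3.35, 4.39 and 6.08 CPM in DGCR8 KO, 39 counts in all and at least 3.21-fold above the floor in WT, and at 0.729, 0, 0.350 and 0 CPM in DDX6 KO. Rsad2 and Gbp2 passed the filter through the DGCR8 KO libraries alone, so they had to differ, though both count among the members called. Oasl1, Parp12, Parp14 and Samd9l reached 3 CPM of the unscaled library total in no WT library. The filter thus favoured a rise against WT in them too.

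All 4 listed genes of ADP-ribosylation were called higher in DGCR8 KO. Parp9 (chr16:35938470-35972605, + strand), which forms a ubiquitin ligase with Dtx3l, was at 11.9, 9.83 and 9.54 CPM in WT, at 34.7, 63.5 and 41.3 CPM in DGCR8 KO and at 12, 16.3, 11.2 and 11.7 CPM in DDX6 KO. Its increase of 2.13 ± 0.26 log2 units in DGCR8 KO stood beside 0.31 ± 0.29 in DDX6 KO, where the libraries overlapped with WT. Dtx3l (chr16:35931861-35939151, − strand), whose first bases overlap with Parp9 on the other strand, was at 4.30, 8.47 and 13.7 CPM in WT, at 19.5, 18.2 and 23.5 CPM in DGCR8 KO and at 3.28, 5.88, 7.35 and 6.40 CPM in DDX6 KO. The DGCR8 KO libraries were all above the others. Its difference from WT was 1.13 ± 0.31 log2 units in DGCR8 KO and -0.69 ± 0.37 in DDX6 KO, and the call in DGCR8 KO was lost without WT replicate 1 (0.83).

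Parp14 (chr16:35832874-35871544, − strand), a mono-ADP-ribosyltransferase, lies next to this pair. It was at 0.955, 3.05 and 0.665 CPM in WT, at 13.4, 25.7 and 18.6 CPM in DGCR8 KO and at 4.01, 4.84, 3.50 and 4.18 CPM in DDX6 KO. Both knockouts were above WT without overlap, and DGCR8 KO was above DDX6 KO. The log2 fold change was 3.78 ± 0.54 in DGCR8 KO and 1.66 ± 0.58 in DDX6 KO. The latter call rested on few counts: it was lost without WT replicate 1 (1.60) or 3 (1.03), without either library of clone 1 (1.68 and 1.59) or the second of clone 2 (1.66), and with either clone alone (1.77 and 1.58). Parp12 (chr6:39086410-39118349, − strand), of the same enzyme class, was at 2.87, 1.69 and 1.77 CPM in WT, at 14.6, 16.5 and 10.5 CPM in DGCR8 KO and at 4.74, 4.84, 4.20 and 2.51 CPM in DDX6 KO. It was apart from the other groups in DGCR8 KO only, with log2 fold changes of 2.73 ± 0.41 in DGCR8 KO and 0.92 ± 0.45 in DDX6 KO.

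Nmi and Ifi35, whose proteins bind each other, differed in DDX6 KO. Nmi (chr2:51948487-51973224, − strand) was at 2.39, 4.74 and 5.54 CPM in WT, at 31.4, 37.5 and 35.2 CPM in DGCR8 KO and at 11.7, 11.1, 12.6 and 15.6 CPM in DDX6 KO. The 3 groups did not overlap at all, with log2 fold changes against WT of 2.93 ± 0.30 in DGCR8 KO and 1.51 ± 0.32 in DDX6 KO. Ifi35 (chr11:101448407-101458698, + strand) was at 3.34, 7.46 and 4.88 CPM in WT, at 30.8, 20.6 and 24.3 CPM in DGCR8 KO and at 6.19, 6.92, 4.20 and 10.3 CPM in DDX6 KO. It was apart in DGCR8 KO, by 2.26 ± 0.33 log2 units, and overlapped with WT in DDX6 KO (0.39 ± 0.37).

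Xaf1 and Samd9l were also called higher in DGCR8 KO against WT. Xaf1 (chr11:72301630-72313733, + strand), which binds the apoptosis inhibitor XIAP, was at 2.87, 9.83 and 11.8 CPM in WT, at 18.6, 23.6 and 26.3 CPM in DGCR8 KO and at 7.65, 18.3, 13.6 and 15.6 CPM in DDX6 KO. Its DGCR8 KO libraries were above all others, by 1.44 ± 0.37 log2 units against WT, and DDX6 KO and WT overlapped. Samd9l (chr6:3372257-3399572, − strand), an inhibitor of viral translation, was at 2.39, 0.339 and 1.33 CPM in WT, at 11.6, 4.39 and 8.10 CPM in DGCR8 KO and at 4.37, 1.04, 5.60 and 1.39 CPM in DDX6 KO. The difference of 2.68 ± 0.70 log2 units from WT in DGCR8 KO was without overlap, but the ranges of both knockouts crossed.

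**Figure D2:**
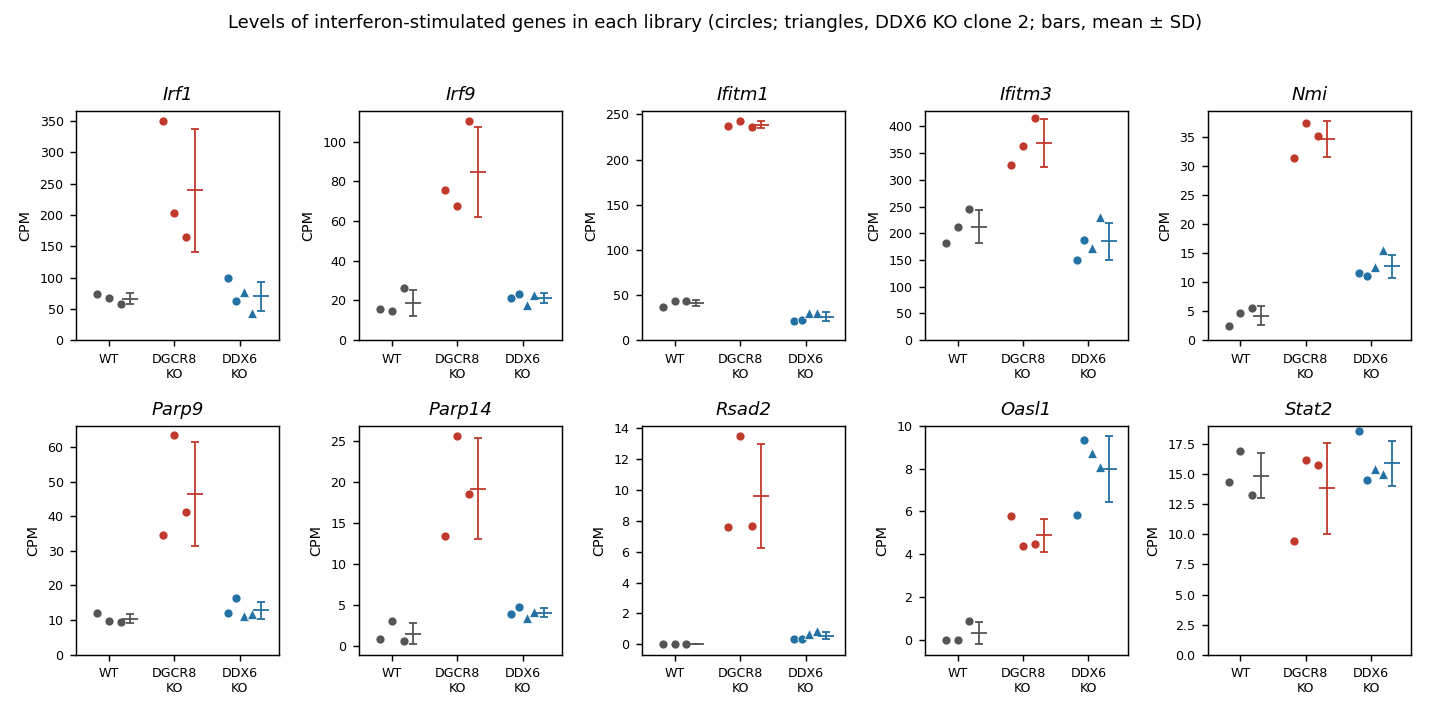
Levels in CPM (y axes, linear) of 10 members in each library, by genotype (x axes). Points are libraries, triangles are clone 2, and bars give the mean ± SD of 3, 3 and 4 libraries. DGCR8 KO is apart from WT for all but Stat2, and DDX6 KO is apart for Ifitm1 (lower) and for Nmi, Parp14 and Oasl1 (higher). Rsad2 lies above WT in DDX6 KO too, but at or under the floor of 3 counts in every library.

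Over the 21 tested members, the median log2 fold change in DGCR8 KO against WT was 2.08, where the median over all genes tested was 0.00. With Rsad2 and Gbp2 set at their bounds it was 1.90. In 16 members all DGCR8 KO libraries lay above all WT libraries. The share of all genes tested that part in this way was not computed, so this number is a description only. For 8 of the 21 the WT mean was under 3 CPM. Among the other 13, 9 were called higher in DGCR8 KO and the median was 1.82. In DDX6 KO against WT, the median over the 21 was 0.39 beside 0.02 over all genes (0.31 with both bounds), and over the 13 it was 0.11, with 1 called higher. Since the list was compiled with these contrasts known, the distance of the members' counts from the 8.93% and 7.55% of all genes is not evidence about them.

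Library by library, the median of the members relative to the WT mean was 2.02, 1.86 and 1.93 log2 units in DGCR8 KO, -0.14, 0.00 and 0.13 in WT, 0.32 and 0.43 in clone 1 and 0.21 and 0.22 in clone 2. The median over all tested genes was between 0.00 and 0.03 in every library. No single DGCR8 KO library thus carried the difference. The summed level of the members was 1223 to 1272 CPM in DGCR8 KO, 409 to 507 CPM in WT and 430.3 to 487 CPM in DDX6 KO. Most of this sum came from Ifitm3, Irf1 and Ifitm1, with means of 369, 239 and 238 CPM in DGCR8 KO. Their means were 213, 66.4 and 41.3 CPM in WT and 185, 70.2 and 25.8 CPM in DDX6 KO.

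**Figure D3:**
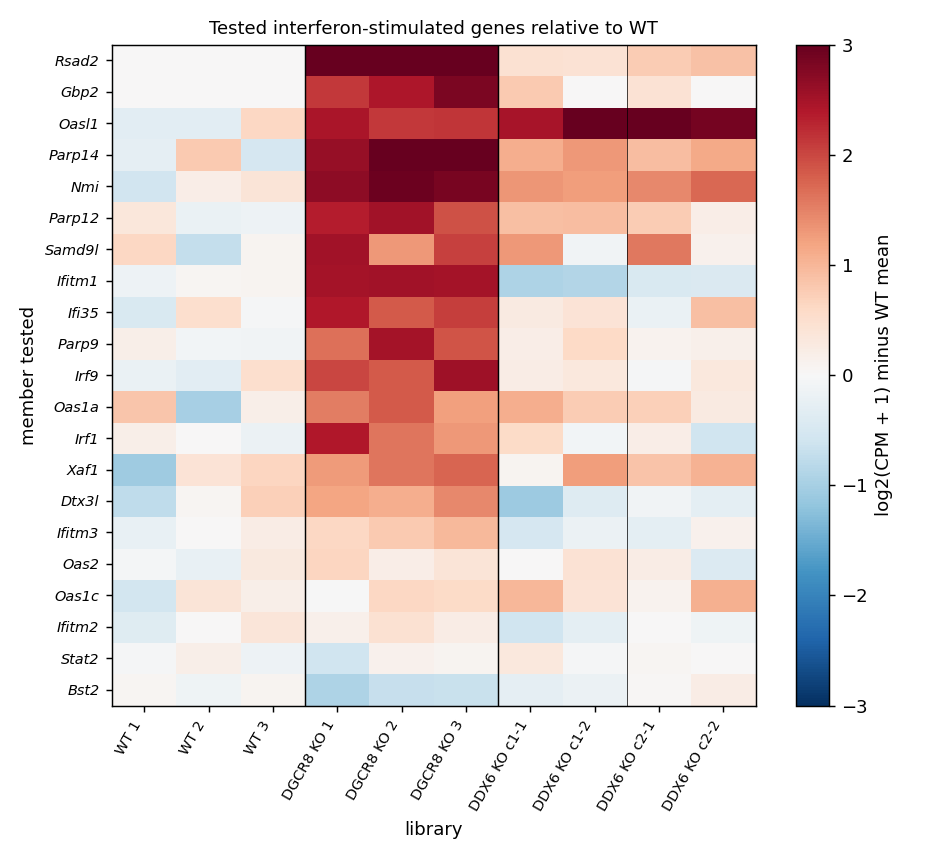
The 21 tested members (rows, ordered by their log2 fold change in DGCR8 KO) in the 10 libraries (columns). Colour gives log2(CPM + 1) minus the mean of the WT libraries, limited to 3 in either direction. The upper 15 rows are red in all DGCR8 KO libraries, Bst2 is blue there, and Oasl1 is the row with the deepest red in DDX6 KO.

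**Figure D4:**
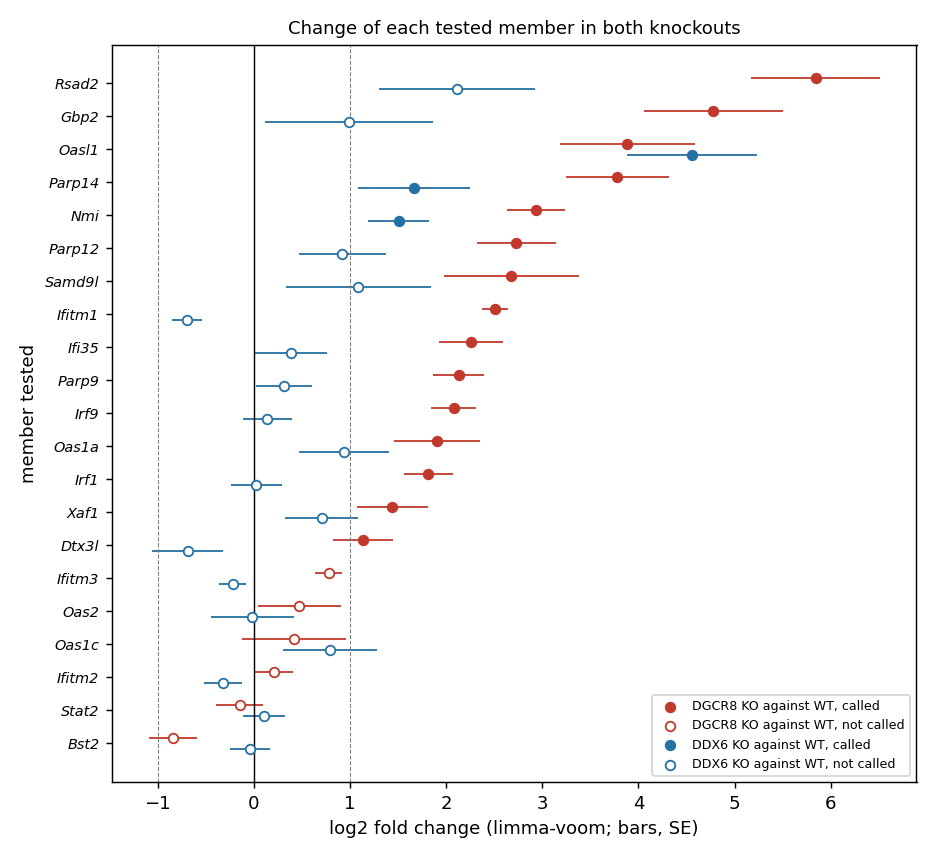
Log2 fold changes against WT of the 21 tested members (x axis, with SE as bars) in DGCR8 KO and DDX6 KO, which share the WT libraries. Filled points are called and open points are not, and dashed lines mark the limit of 1. In DGCR8 KO 15 points are filled, in DDX6 KO 3 (Oasl1, Parp14 and Nmi). The points of Rsad2 and Gbp2, which have 0 counts in WT, depend on the offset of the fit and are not bounds.

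The direct contrast of the knockouts asked which members differ between loss of DGCR8 and loss of DDX6. In DGCR8 KO against DDX6 KO, 12 of 21 members were called higher and 0 lower, beside 7.77% and 9.32% of all genes tested, and the median was 1.59 (0.00 over all genes). The largest difference of a member with counts in all libraries was that of Ifitm1, at 3.20 ± 0.14 log2 units. Parp14 (2.12 ± 0.33), Irf9 (1.94 ± 0.20), Ifi35 (1.87 ± 0.28), Dtx3l (1.82 ± 0.32), Parp9 (1.82 ± 0.23), Parp12 (1.81 ± 0.31), Irf1 (1.79 ± 0.24) and Nmi (1.42 ± 0.19) were also called, all without overlap between the knockouts. Rsad2 had 84 counts in DGCR8 KO against 7 in DDX6 KO. Gbp2 had 39 against 3. Both are among the 12, but they passed the filter through the DGCR8 KO libraries alone, so this difference was set by the filter. Samd9l (1.59 ± 0.51) was called despite the overlap, and the call was lost without DGCR8 KO replicate 1 (1.23), without the second library of clone 1 (1.25) or of clone 2 (1.29), and with either clone alone (1.71 and 1.44).

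Among the 9 members not called between the knockouts, Ifitm3 was just under the limit at 0.998 ± 0.13 log2 units. Oas1a (0.96 ± 0.34), Xaf1 (0.74 ± 0.29) and Ifitm2 (0.53 ± 0.19) were also higher in every DGCR8 KO library than in every DDX6 KO library. In the other direction, Bst2 (-0.80 ± 0.24) and Oasl1 (-0.67 ± 0.33) were lower in all DGCR8 KO libraries. Stat2, Oas1c and Oas2 overlapped between the knockouts.

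The clones of DDX6 KO, 2 separately edited lines, allowed a test outside the contrasts that chose the members. Ddx6 itself was at 149 and 134 CPM in clone 1 and at 38.8 and 25.6 CPM in clone 2. Between the clones, 0 of 21 members were called, beside 0.0428% of all genes tested, by limma-voom as well as by edgeR and DESeq2, and 1 had an unadjusted p under 0.05. That member, Ifitm1, was at 21.1 and 22.1 CPM in clone 1 and 29.7 and 30.3 CPM in clone 2, a log2 difference of 0.47 ± 0.21 that failed the correction. With 2 libraries from each clone and so few calls over all genes, 0 called members does not show that the clones are alike. Members with few counts were measured with a wide error. Samd9l was at 4.37 and 1.04 CPM in clone 1 and at 5.60 and 1.39 CPM in clone 2, with a standard error of 0.86.

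The rest of the pathway was examined in 87 genes outside the list, of which 46 were tested. This set was also drawn up with earlier results of these data known. In DGCR8 KO against WT, 16 of the 46 were called higher and 0 lower, beside 8.93% and 5.8% of all genes tested, with a median log2 fold change of 0.68. In DDX6 KO, 7 were called higher and 0 lower, beside 7.55% and 3.66%, with a median of 0.49, and without WT replicate 3 the 7 fell to 4. In DGCR8 KO against DDX6 KO, 12 were higher and 2 lower, beside 7.77% and 9.32%, with a median of 0.32, and without DGCR8 KO replicate 1 the 14 calls fell to 8. Zbp1, Psmb8 and Gbp4, counted among both the 16 and the 12, passed the filter through the DGCR8 KO libraries alone and so had to differ. They are given by their levels with no test. Irf2, Irgm1, Irgm2 and Igtp reached 3 CPM in no WT library and passed through knockout libraries. The filter thus favoured a rise against WT in these genes, which stay in the counts of calls. Their changes against WT are given with no p-value. The 12 were Ifngr2, Irf2, Ddx58, Zbp1, Tapbp, Psmb8, Gbp4, Irgm1, Mov10, Tor3a, Phf11d and Znfx1. Of these, Irf2, Irgm1 and Tor3a lost the call without DGCR8 KO replicate 1 (0.90, 1.22 and 0.93) or the second library of clone 2 (0.97, 1.18 and 0.89), and Tor3a also without the first of clone 1 (0.96). Irgm1 also lost it with clone 1 alone (1.39). Tor3a was at the limit in this contrast (1.01) and was also just under it with edgeR (0.99), DESeq2 (0.98), limma-trend (0.95), total counts (0.88), either other filter (0.99) and clone 1 alone (0.93). The adjusted p-values that follow are from limma-voom over all genes tested. Because the set was drawn up with earlier results known, they are a description and not an independent test.

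All 11 listed genes for interferons had 0 counts in every library, which at 3 counts allows up to 0.665 to 1.43 CPM. The receptor chains for type I interferon, Ifnar1 and Ifnar2, were expressed in all genotypes. Ifnar1 was at 23.9, 18.6 and 21.1 CPM in WT, at 29.8, 34.8 and 29.6 CPM in DGCR8 KO and at 24.4, 21.1, 34.3 and 30.1 CPM in DDX6 KO. Every DGCR8 KO library was above WT, by 0.58 ± 0.20 log2 units (adjusted p = 0.0267), within the limit for a call. Ifnar2 ranged from 5.54 to 11.5 CPM and overlapped between all groups. Ifngr2, a chain of the receptor for interferon gamma, was the only receptor gene called. It was at 4.30, 2.37 and 3.33 CPM in WT, at 10.7, 16.2 and 12.6 CPM in DGCR8 KO and at 2.91, 3.11, 1.40 and 2.78 CPM in DDX6 KO. DGCR8 KO was apart from both other groups, by 1.97 ± 0.35 log2 units from WT (adjusted p = 0.000272) and by 2.31 ± 0.35 from DDX6 KO (adjusted p = 3.96e-05). Ifngr1, the other chain, was higher in every DGCR8 KO library than in WT. Its difference of 0.9998 ± 0.32 log2 units (adjusted p = 0.0201) was just under the limit.

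Of the kinases and transcription factors, Irf2 rose in both knockouts and Jak2 in DGCR8 KO. Irf2, which competes with IRF1 for its sites, was at 1.91, 1.36 and 0.444 CPM in WT, at 23.8, 17.2 and 11.7 CPM in DGCR8 KO and at 10.2, 6.23, 10.5 and 5.57 CPM in DDX6 KO. It lies on chromosome 8, which was lower as a whole in DGCR8 KO. Its rise was 4.04 ± 0.61 log2 units in DGCR8 KO and 2.87 ± 0.62 in DDX6 KO.

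Jak2, the kinase of the interferon gamma receptor, was at 15.3, 16.3 and 9.98 CPM in WT, at 45.7, 40.2 and 31.2 CPM in DGCR8 KO and at 25.5, 22.1, 23.1 and 23.9 CPM in DDX6 KO, and the 3 groups did not overlap. It rose by 1.59 ± 0.22 log2 units in DGCR8 KO (adjusted p = 2.01e-05), and its difference of 0.87 ± 0.22 in DDX6 KO (adjusted p = 0.00524) was within the limit. Jak1 differed by 0.58 ± 0.12 and 0.44 ± 0.11 (adjusted p = 0.000838 and 0.00558), also within it, and Tyk2 by 0.40 ± 0.18 and -0.15 ± 0.18 (adjusted p = 0.0864 and 0.532). Irf5 was called only between the knockouts, lower in DGCR8 KO by -1.14 ± 0.38 log2 units (adjusted p = 0.0205), a call lost without DGCR8 KO replicate 3 (-0.86) and with clone 2 alone (-1.05). It lies on chromosome 6, which was higher as a whole in DDX6 KO.

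Sensors of foreign nucleic acid did not move together. Ddx58 (RIG-I), which detects viral RNA, rose in DGCR8 KO from 17.2, 13.9 and 29.5 CPM in WT to 77.7, 44.9 and 84.7 CPM, by 1.69 ± 0.27 log2 units (adjusted p = 7.3e-05), and was at 23.7 to 29.9 CPM in DDX6 KO. Zbp1, a sensor of Z-form nucleic acids, was at 4.57, 9.45 and 5.67 CPM in DGCR8 KO against 0, 0 and 0.444 CPM in WT and at most 1.11 CPM in DDX6 KO. Its DGCR8 KO libraries were above all others. Ticam1, an adaptor of Toll-like receptors, rose by 1.20 ± 0.37 (adjusted p = 0.015) in DGCR8 KO, a call lost without WT replicate 3 (0.75), without DGCR8 KO replicate 1 (1.09), with DESeq2 (1.09) and with limma-trend (0.97). Tmem173 (STING), the adaptor for cytosolic DNA, went the other way. It was at 5.73, 4.74 and 9.09 CPM in WT, at 2.74, 3.04 and 6.89 CPM in DGCR8 KO and at 13.8, 23.9, 15.7 and 12.5 CPM in DDX6 KO. It rose in DDX6 KO by 1.22 ± 0.32 log2 units (adjusted p = 0.00674) and was lower in DGCR8 KO than in DDX6 KO by -2.04 ± 0.39 (adjusted p = 0.000396).

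Of the 46 other interferon-responsive genes outside the list, 22 were tested, and 9 were called higher in DGCR8 KO and 4 in DDX6 KO, beside 8.93% and 7.55% of all genes. Mov10, an RNA helicase, was at 41.6, 32.5 and 34.6 CPM in WT, at 162, 134 and 149 CPM in DGCR8 KO and at 47.0 to 55.1 CPM in DDX6 KO. It rose by 2.05 ± 0.14 log2 units in DGCR8 KO (adjusted p = 4.83e-09). Znfx1, a helicase that binds viral RNA, went from 21.0, 17.3 and 22.2 CPM in WT to 75.5, 73.9 and 78.6 CPM in DGCR8 KO, by 1.90 ± 0.17 log2 units (adjusted p = 1.36e-07), and was at 12.2 to 18.7 CPM in DDX6 KO. Both were apart from the other groups in DGCR8 KO. Tor3a rose by 1.64 ± 0.27 (adjusted p = 0.000117).

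Some genes of antigen presentation rose. Tap1 and Psmb9, of the same function, did not pass the filter. Tap1 overlapped between DGCR8 KO and WT and was below all WT libraries in DDX6 KO, and Psmb9 overlapped between all groups. Tapbp (tapasin), which loads peptides onto class I molecules, was at 26.7, 20.7 and 23.1 CPM in WT, at 147, 129 and 188 CPM in DGCR8 KO and at 45.9, 37.0, 50.4 and 42.9 CPM in DDX6 KO, with no overlap between the groups. Its log2 fold change was 2.71 ± 0.18 in DGCR8 KO (adjusted p = 4.6e-09) and 0.92 ± 0.19 in DDX6 KO (adjusted p = 0.00119). Psmb8, a subunit of the immunoproteasome, had 0 counts in WT and was at 6.09, 7.09 and 4.05 CPM in DGCR8 KO and at 0 to 1.11 CPM in DDX6 KO. B2m, the light chain of class I molecules, was higher in DDX6 KO than in DGCR8 KO in every library. It rose by 1.60 ± 0.21 log2 units in DDX6 KO (adjusted p = 1.61e-05) and by 1.04 ± 0.23 in DGCR8 KO (adjusted p = 0.00159). The latter call was lost without WT replicate 3 (0.84), without DGCR8 KO replicate 1 (0.92) and with the replicate block (0.97). DESeq2 (0.993), limma-trend (0.938) and the fit with no filter (0.994) did not call it either.

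The immunity-related GTPases had few counts in WT. Irgm1 was at 0.478, 0.678 and 0.222 CPM in WT, at 25.9, 9.79 and 5.27 CPM in DGCR8 KO and at 5.47, 3.46, 7.0 and 0.835 CPM in DDX6 KO. Its rise in DGCR8 KO was 4.44 ± 1.10 log2 units. Irgm2 was at 0, 2.71 and 0.222 CPM in WT, at 17.7, 7.76 and 3.65 CPM in DGCR8 KO and at 10.6, 5.54, 6.30 and 3.06 CPM in DDX6 KO. It rose in both, by 3.88 ± 0.99 and 3.28 ± 0.99, calls that were both lost without WT replicate 3 (3.19 and 2.59). The call in DDX6 KO was also lost with clone 2 alone (2.95). Igtp (2.49 ± 0.89) and Trim34a (1.26 ± 0.42, adjusted p = 0.0251) were called in DDX6 KO. Both calls were lost without WT replicate 1 (1.96 and 1.13) or 3 (2.46 and 1.06) or the second library of clone 1 (2.45 and 1.16). That of Igtp was also lost without either library of clone 2 (2.43 and 2.49) and with clone 1 or clone 2 alone (2.34 and 2.68). That of Trim34a was also lost with clone 2 alone (1.13). The annotated spans of Igtp and Irgm2 overlap on the same strand, so the split of their reads is uncertain. Gbp4, related to Gbp2, was at 0, 0.678 and 0.444 CPM in WT, at 10.4, 7.43 and 4.86 CPM in DGCR8 KO and at most 1.09 CPM in DDX6 KO. Phf11d was called only between the knockouts, by 1.26 ± 0.18 (adjusted p = 2e-05).

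**Figure D5:**
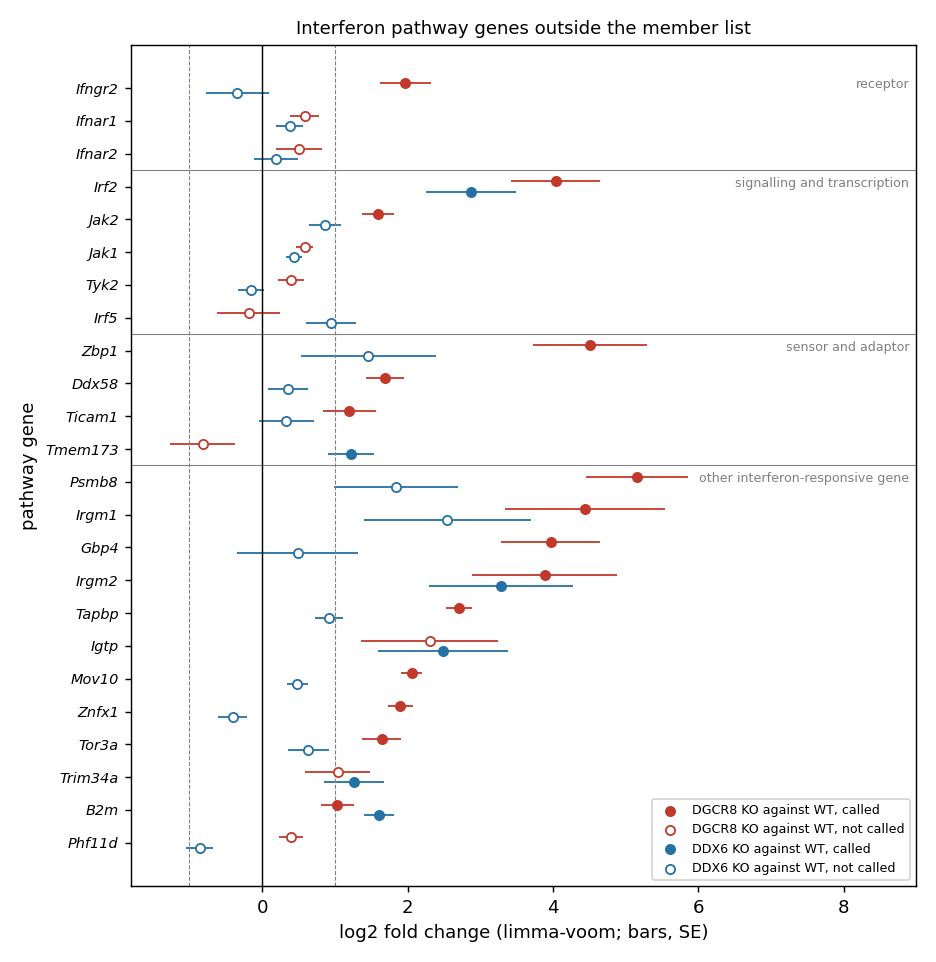
Log2 fold changes against WT (x axis, SE as bars) of 24 interferon pathway genes outside the list, in rows grouped by role, in DGCR8 KO and DDX6 KO, which share the WT libraries. Filled points are called and open points are not. In DGCR8 KO 15 points are filled and in DDX6 KO 6, all to the right of the dashed line at 1. The point of Psmb8, with 0 counts in WT, depends on the offset of the fit and is not a bound.

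Between the clones of DDX6 KO, 0 of the 46 pathway genes were called by limma-voom, edgeR or DESeq2, and 1 had an unadjusted p under 0.05 (Ifnar1, 0.49 ± 0.22). Of all genes tested 0.0428% were called, so this too does not show that the clones are alike.

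Promoters of the members were searched for both response elements in windows of 300 bases, from 250 before to 50 after each start site in RefSeq (GRCm38.p6), which held 39 of the 48 members. The searched core of the ISRE was GAAA, any 2 bases and GAAA, on either strand. That of the GAS was TTC, any 3 bases and GAA, which reads the same on both strands. The ISRE core was present for 19 of 39 members (48.7%), and for 3.99% of all 27025 genes with a window. The GAS core was present for 7 members (17.9%) and for 9.55% of all genes.

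The ISRE core was found both among members called in DGCR8 KO and among the others, with no test of the shares. Of the 13 with a window among the 15 called higher, 3 held it (Rsad2, Gbp2 and Oas1a). All 5 with a window among the tested members not called held it (Stat2, Oas1c, Ifitm2, Ifitm3 and Bst2), as did 11 of 21 untested members, including Isg15, Ifit1 and Ifit3, which were at or near 0 counts. Neither core was found in the windows of 8 members called in DGCR8 KO (Irf9, Nmi, Parp12, Ifitm1, Oasl1, Dtx3l, Xaf1 and Samd9l), which says only that these letters are absent there. Members without a window were Rtp4, Mx2, Parp14, Oas1b, Ifi27, Parp9, Usp18, Mx1 and Oas2.

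Stretches of 60 bases are given 5′ to 3′ on the strand of the gene, all upstream of the start site, with matches to a core in capitals. The first 3 are from members called in DGCR8 KO, Rsad2 and Oas1a with the ISRE core and Irf1 with the GAS core, and the last 2 are from Isg15 and Ifit1, which hold several ISRE cores and had 3 counts and 1 count in all 10 libraries.
Rsad2 (chr12:26456538-26456597, − strand): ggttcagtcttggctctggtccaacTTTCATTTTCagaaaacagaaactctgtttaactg
Oas1a (chr5:120907526-120907585, − strand): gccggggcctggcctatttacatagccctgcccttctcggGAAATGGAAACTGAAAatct
Irf1 (chr11:53769899-53769958, + strand): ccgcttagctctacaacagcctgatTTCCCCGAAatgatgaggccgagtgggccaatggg
Isg15 (chr4:156200862-156200921, − strand): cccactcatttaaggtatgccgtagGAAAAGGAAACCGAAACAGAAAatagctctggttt
Ifit1 (chr19:34640760-34640819, + strand): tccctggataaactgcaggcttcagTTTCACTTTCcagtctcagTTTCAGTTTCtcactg
Matches in Rsad2 and Ifit1 lie on the opposite strand, where the core reads as TTTC, any 2 bases and TTTC.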

How the data were processed

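QuantSeq 3′ FWD libraries were made by the authors from 10 samples of mouse ESCs. The deposited values are raw counts of reads per gene and library. Per the file headers, the labels and the methods, the authors trimmed reads with Cutadapt 1.14, kept uniquely mapped reads from STAR 2.5.3a on mm10, and counted sense-strand reads in exons by featureCounts 1.5.3 (Gencode M14 basic without ribosomal RNA, with 92 ERCC spike-in sequences). Unique mapping lowers counts of near-identical genes. No molecular identifiers are stated, so intervals and floors cover counting error only. Spike-in counts were set aside. Symbols were matched by identifier in Gencode M21 for 51274 of 51467 genes.

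Genes that reached 3 CPM in 3 or more libraries were tested, with library sizes scaled by TMM (edgeR 4.0.16) and fitted with limma-voom (limma 3.58.1, R 4.3.3) in 1 model of all 10 libraries, with Benjamini-Hochberg adjustment over 11683 genes, two-sided. The study's methods name limma for its KO comparisons. Clones were compared in a second fit. A member at 0 in WT is given against the floor of 3 counts in the shallowest WT library. Alternatives were edgeR's quasi-likelihood test, DESeq2 1.42.0, limma-trend, total-count scaling, other filters, the adjusted p alone, a replicate block, single clones and each library left out. The code was tested on simulated data.

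Members and lists were chosen with earlier results of these data known. Members are named with values where a group mean reached 10 CPM or a contrast was called, pathway genes where called or on the signal path, such as Ifnar1, Ifnar2, Jak1 and Tyk2. A pathway gene that is part of the counts is not reported here by itself. The GAS motif was added after the values were seen. Replicate numbers were taken to pair WT with DGCR8 KO, since deviations from the group means correlated at 0.145, 0.267 and 0.285 in the 3 same-numbered pairs. For DDX6 KO they were not, since 1 of 4 such pairs correlated at -0.042. The main fit held the group only and did not use the pairing. It entered in the replicate block alone, which also used the numbers of the DDX6 KO libraries.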

Additional observations from a re-analysis of the deposited data

Results flagged for a closer look

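Parp9 in the 4 DDX6 KO libraries held a library far from the others. The second library of clone 1 was at 16.3 CPM and the others at 11.2, 11.7 and 12 CPM, a gap to the nearest of 0.837 of the whole range, just above Dixon's critical value for 4 samples. Chance alone passes this limit in about 5% of groups, and 21 members were looked at. Parp9 was not called in DDX6 KO with or without that library.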

How the results depend on the processing

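Of the 30 calls of members in single contrasts, 27 held under every alternative that tested them, and of 37 calls of pathway genes, 27 did. The exceptions among members were Parp14 in DDX6 KO, Dtx3l in DGCR8 KO and Samd9l between the knockouts, with the values given beside them. No call changed direction. With the replicate block, 1749 genes were called in DGCR8 KO against WT in place of 1721, 1201 in place of 1310 in DDX6 KO and 1978 in place of 1997 between the knockouts. Among members it added Rsad2 in DDX6 KO against WT (1.94), which edgeR (3.91) and total counts (2.23) also called, and changed no other call of a member. Among pathway genes, the block ended the calls of B2m in DGCR8 KO (0.97), of Trim34a and Igtp in DDX6 KO (1.04 and 1.65) and of Irf5 between the knockouts (-0.89). It moved the members' median between the knockouts to 1.40. In the clone contrast 0 members and 0 pathway genes were called under all alternatives run.

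The filter sets how many members are tested. With no filter, 41 members were tested and 23 were called in DGCR8 KO against WT (22 higher, with Sp100 lower), 8 in DDX6 KO and 19 between the knockouts (16 higher and 3 lower), with medians of 1.81 in DGCR8 KO and 0.96 between the knockouts. At 10 CPM, 13 members were tested, 9 were called in DGCR8 KO, and the medians were 1.80, 0.12 and 1.76 in the 3 contrasts. Pathway calls were then 10, 4 and 9. By the adjusted p alone, pathway calls were 25, 21 (17 higher and 4 lower) and 23 (19 higher and 4 lower). Total counts shifted the median of all genes from 0.02 to 0.15 in DDX6 KO against WT and from 0.00 to -0.13 between the knockouts, raised the members' median in DDX6 KO to 0.51 and the pathway calls to 11, and gave a median of 1.47 between the knockouts. That last median was 1.43 with edgeR, 1.42 with DESeq2, 1.41 with limma-trend and 1.44 with clone 2 alone.

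With each library left out, the members' median ranged from 1.88 to 2.16 in DGCR8 KO, from 0.29 to 0.60 in DDX6 KO and from 1.23 to 1.65 between the knockouts, and pathway calls from 4 (without WT replicate 3) to 10 in DDX6 KO and from 8 (without DGCR8 KO replicate 1) to 14 between the knockouts. Without a DGCR8 KO library, 19 members were tested, since Rsad2 and Gbp2 then failed the filter. Depth limits the 27 untested members, none of which exceeded 24 counts in a library.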
